A study of Canis lupus familiaris with 6 samples.

Results

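The interleukin-1 and interleukin-18 system was followed in whole blood through 10 genes chosen by name, which cover 4 secreted ligands or antagonists (IL1A, IL1B, IL1RN and IL18) and 6 receptors or binding proteins (IL1R1, IL1R2, IL1RAP, IL18R1, IL18RAP and IL18BP). All 10 were present, each as a single gene, among the 31512 genes of the deposited table. The samples were 3 adult Beagle dogs of the control group, fed a snack without CPP-Se, and 3 of the CPP-Se group, fed this snack with added CPP-Se, in which selenium is chelated by casein phosphopeptides. Both groups ate the same maintenance food, blood was sampled on day 30, and 1 library was sequenced per dog. Expression is given as FPKM, the fragments on a gene scaled by its length and by the size of the library.

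Interleukin-1 alpha and interleukin-1 beta signal through the receptor IL1R1, which needs the accessory chain IL1RAP to pass the signal on through MYD88 and the IRAK kinases. The receptor antagonist IL1RN occupies IL1R1 without bringing in IL1RAP, and IL1R2 is a decoy that binds ligand but lacks the intracellular TIR domain. Interleukin-18 uses a parallel receptor made of IL18R1 and IL18RAP, and the secreted protein IL18BP captures it before it can bind. Both IL1B and IL18 are made as precursors that inflammasomes and caspase 1 mature. In blood, myeloid cells are known as the main source of IL1B and IL1RN, and T and NK cells as responders to interleukin-18.

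The 6 libraries held 6598173 to 8067034 reads on genes, recovered from FPKM and gene length. The 8 hemoglobin genes took 36.6% to 55.9% of these reads. The lowest share was that of CPP-Se replicate 2, whose FPKM also imply a library 1.65 times its reads on genes, against 0.882 to 1.05 times in the other dogs. The 9847 genes whose mean over the 6 dogs reached 1 FPKM were compared on log2(FPKM + 1) with limma, and a gene was called at an adjusted p under 0.05 with a fold change of at least 1.5. Of the 10 genes of the system, 8 were tested. IL1A, with a mean of 0.165 FPKM, and IL1R1, with 0.830 FPKM, lay under the filter. IL1R2 passed it narrowly, at 1.01 FPKM, and did so through its control dogs.

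The antagonist IL1RN and the receptor chains IL1RAP, IL18R1 and IL18RAP were lower in every CPP-Se dog than in any control dog, with group means at 36.8% to 54.7% of the control mean. IL1R1, which was too scarce to be tested, had the same order of groups. No overlap in this direction was found for 12.6% of all genes tested. IL18 differed little between the groups, IL18BP had the higher mean in the CPP-Se group, and IL1B and IL1R2 had lower means with dogs that overlapped. Whole blood mixes cell types, and fewer cells of a type cannot be told apart from less RNA per cell. None of the 8 genes tested was called (limma with Benjamini-Hochberg adjustment over 9847 genes), where 0.0305% of all genes were. At an unadjusted p under 0.05, 4 of the 8 were lower in the CPP-Se group, against 9.10% of all genes tested. Scaling every dog to a common sum of FPKM, which raises CPP-Se replicate 2, moved the median log2 fold change of all genes from -0.0043 to 0.13 and the share of lower genes among those with an unadjusted p under 0.05 from 57.0% to 28.7%. IL1RAP and IL18RAP then kept an unadjusted p under 0.05, as 2.68% of all genes did in this direction, and separate groups (3.15%). IL1RN and IL18R1 kept neither. Their log2 fold changes were -0.73 and -0.64 at the common sum, against -0.88 and -0.77 at the deposited scaling. With the scarce genes included, 3 of the 10 were separate, IL1R1 being the third, against 2.73% of all detected genes. Median of ratios scaling and quantile normalization kept all 4 genes lower at an unadjusted p under 0.05 (8.72% and 7.89% of all genes). With a filter of 5 FPKM, 2 of the 4 genes tested (IL1RN and IL1RAP) were lower at this threshold, against 12.7% of all genes. The plot of levels by dog shows the 10 genes together.

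**Figure D1:**
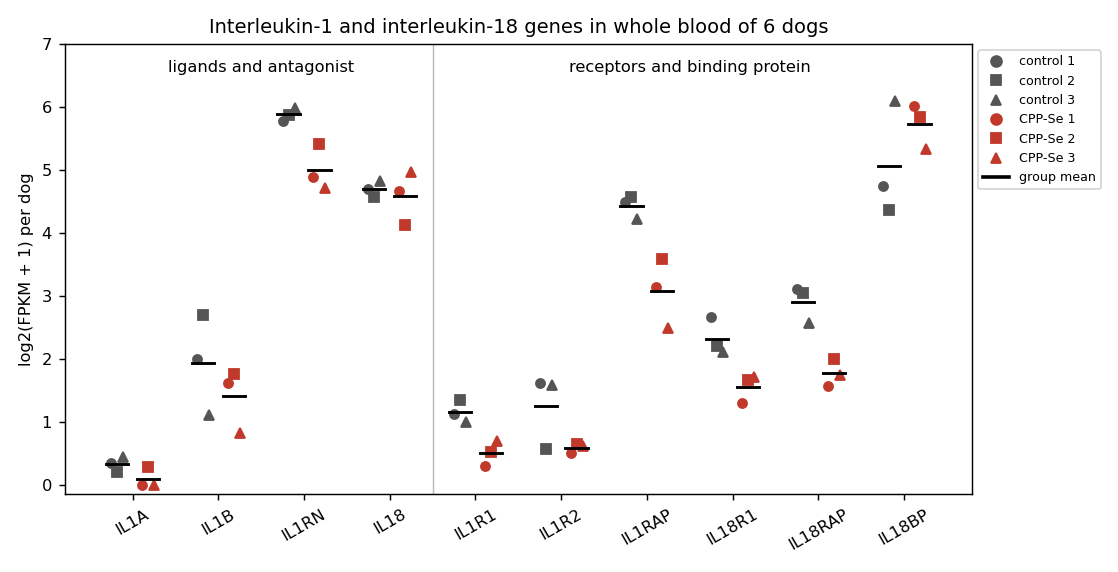
Expression of the 10 genes, as log2(FPKM + 1), in each of the 3 control dogs (grey) and 3 CPP-Se dogs (red). Symbols mark the replicate numbers and bars the group means. The red and grey points separate for IL1RN, IL1R1, IL1RAP, IL18R1 and IL18RAP, and overlap for the other 5 genes.

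In the control group, the genes spanned from 58.1 FPKM for IL1RN to 0.259 FPKM for IL1A. The inhibitors IL1RN and IL18BP stood at the top, followed by IL18 and IL1RAP. IL18RAP, IL18R1, IL1B, IL1R2 and IL1R1 followed, and each of these neighbours overlapped the next in its range over the 3 control dogs. IL1RN and IL18BP overlapped too, as did IL18BP and IL18. The steps from IL18 to IL1RAP, from IL1RAP to IL18RAP and from IL1R1 to IL1A were free of overlap in both groups. In the CPP-Se group the order was the same, except that IL18BP, at 53.1 FPKM, lay above IL1RN in all 3 dogs.

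Of the ligands, IL1B (ENSCAFG00000007249, chromosome 17, 37019329 to 37024458) encodes the main circulating form of interleukin-1. Control replicates 1, 2 and 3 had 2.97, 5.50 and 1.16 FPKM, against 2.07, 2.4 and 0.765 FPKM in the CPP-Se dogs, also in the order of their numbers, as throughout. The dogs overlapped, and the 6 values rest on 6 to 45 reads each. The log2 fold change was -0.53 (standard error 0.43, 95% interval -1.54 to 0.47, adjusted p = 0.591 from limma), so a decrease or a small increase is possible at this depth. Leaving out control replicate 3 moved it to -0.94, and leaving out control replicate 2 moved it to -0.15.

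IL1A (ENSCAFG00000007245, chromosome 17, 36970573 to 36979435), the form that acts mostly from within or at the surface of cells, was close to the limit of detection. Its reads numbered 2, 1 and 3 in the control dogs, against 0, 3 and 0 in the CPP-Se dogs. A floor of 3 reads corresponds to 0.212 to 0.462 FPKM for this gene, so both groups were at or under it and no fold change is given. IL1A also shares 2676 bases of its span with CKAP2L on the same strand.

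IL1RN (ENSCAFG00000007277, chromosome 17, 37212751 to 37249329), the antagonist of the interleukin-1 receptor, was among the more abundant genes of the blood, above 90.7% of the genes tested. The control dogs had 54.0, 57.8 and 62.6 FPKM, against 28.6, 41.6 and 25.1 FPKM for CPP-Se. The lowest control dog was thus above the highest CPP-Se dog. The means were 58.1 ± 4.29 and 31.8 ± 8.72 FPKM (SD, n = 3 dogs per group), which gives -0.88 on the log2 scale (standard error 0.22, 95% interval -1.40 to -0.36, adjusted p = 0.170 from limma).

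IL18 (ENSCAFG00000030180, chromosome 5, 20972871 to 20995348) differed least. Levels of 25.1, 22.8 and 27.3 FPKM in the control dogs stood beside 24.3, 16.4 and 30.3 FPKM in the CPP-Se dogs. The latter held both the highest and the lowest value. The log2 fold change was -0.12 (95% interval -0.68 to 0.44, adjusted p = 0.853 from limma), and its sign turned to 0.11 without CPP-Se replicate 2.

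IL18BP (ENSCAFG00000005829, chromosome 21, 26076700 to 26078612), the soluble trap of interleukin-18, was the only gene of the 8 tested with a higher mean in the CPP-Se group. Control dogs had 25.8, 19.5 and 67.2 FPKM, and CPP-Se dogs 63.7, 56.3 and 39.2 FPKM. Control replicate 3 was the highest of all 6 dogs, and the other control dogs were below every CPP-Se dog. The log2 fold change was 0.66 (standard error 0.44, 95% interval -0.35 to 1.67, adjusted p = 0.503 from limma). Without control replicate 3 it was 1.18 (adjusted p = 0.274), and without control replicate 2 it was 0.31 (adjusted p = 0.799), both from limma.

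Of the receptors, IL1RAP (ENSCAFG00000014029, chromosome 34, 22546899 to 22623544) had the largest log2 fold change of the 8 genes tested on log2(FPKM + 1), while by group means IL1R2 and IL18RAP were lower still relative to control. Besides IL1R1, this accessory chain serves the receptors of interleukin-33 and interleukin-36. Its FPKM were 21.4, 22.8 and 17.6 in the control dogs, against 7.85, 11.1 and 4.62 in the CPP-Se dogs, or 38.1%, 53.7% and 22.4% of the control mean. The highest CPP-Se dog was replicate 2, and it was still below the lowest control dog. The means were 20.6 ± 2.69 and 7.84 ± 3.22 FPKM (SD, n = 3 dogs per group), and the log2 fold change was -1.35 (95% interval -2.02 to -0.68, adjusted p = 0.138 from limma).

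IL18RAP (ENSCAFG00000002134, chromosome 10, 40581096 to 40605766), the signaling chain of the interleukin-18 receptor, had 7.58, 7.29 and 4.92 FPKM in the control dogs, against 1.97, 2.97 and 2.35 FPKM for CPP-Se. These values rest on 91 to 119 reads in the control dogs and 29 to 91 in the CPP-Se dogs, and the groups were apart. Its log2 fold change was -1.14 (95% interval -1.65 to -0.63, adjusted p = 0.138 from limma).

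IL18R1 (ENSCAFG00000002138, chromosome 10, 40615312 to 40653454), the ligand-binding chain, went the same way with a smaller difference. It had 5.30, 3.59 and 3.31 FPKM in the control dogs, against 1.45, 2.15 and 2.26 FPKM for CPP-Se. No CPP-Se dog reached the lowest control dog. The log2 fold change was -0.77 (95% interval -1.31 to -0.23, adjusted p = 0.198 from limma).

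IL1R1 (ENSCAFG00000002147, chromosome 10, 40827377 to 40897596), the signaling receptor of interleukin-1, was scarce, with 28, 34 and 28 reads in the control dogs, against 5, 20 and 13 reads for CPP-Se. In FPKM these were 1.18, 1.53 and 1.00 against 0.224, 0.431 and 0.611, without overlap. The control mean was 2.93 times the CPP-Se mean. In a fit of all 16615 genes detected in at least 1 dog, its log2 fold change was -0.66 (95% interval -1.11 to -0.20, adjusted p = 0.311 from limma), a value that the pseudocount of 1 FPKM pulls toward 0. Over all 10 genes in that fit, 5 were lower without overlap between the groups, against 8.84% of the genes.

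The decoy IL1R2 (ENSCAFG00000002152, chromosome 10, 40896669 to 41034113) varied widely among the control dogs. Those dogs had 2.07, 0.478 and 1.99 FPKM, against 0.417, 0.558 and 0.530 FPKM for CPP-Se. Control replicates 1 and 3 were above every CPP-Se dog, whereas control replicate 2 lay among them. The log2 fold change was -0.67 (95% interval -1.48 to 0.14, adjusted p = 0.395 from limma), and it was -1.01 without control replicate 2.

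A negative binomial model fitted to the recovered reads, the kind of count model that the study's methods name, placed 4 of the 8 genes past the same thresholds, all lower in the CPP-Se group, where it called 2.85% of all genes tested as lower. They were IL18RAP (adjusted p = 0.00178), IL1RAP (adjusted p = 0.00285), IL1RN (adjusted p = 0.0156) and IL18R1 (adjusted p = 0.0333). In the same model IL1R2 had a log2 fold change of -1.59 (adjusted p = 0.0588) and was not called. The log2 fold changes of IL1RAP and IL1RN were close in both fits, whereas those of IL1R2, IL18RAP and IL18R1, which have fewer FPKM, were larger in the model of reads. Limma-voom on the same reads called 0 of the 8 (0.0102% of all genes), and its smallest adjusted p was 0.0904 for IL1RAP. At an unadjusted p under 0.05, 5 were lower in this fit (9.29% of all genes). These were the 4 called above and IL1R2, which passed the filter through its control dogs. The study's own list of differentially expressed genes was made from these libraries, so no count on them is independent of it.

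**Figure D2:**
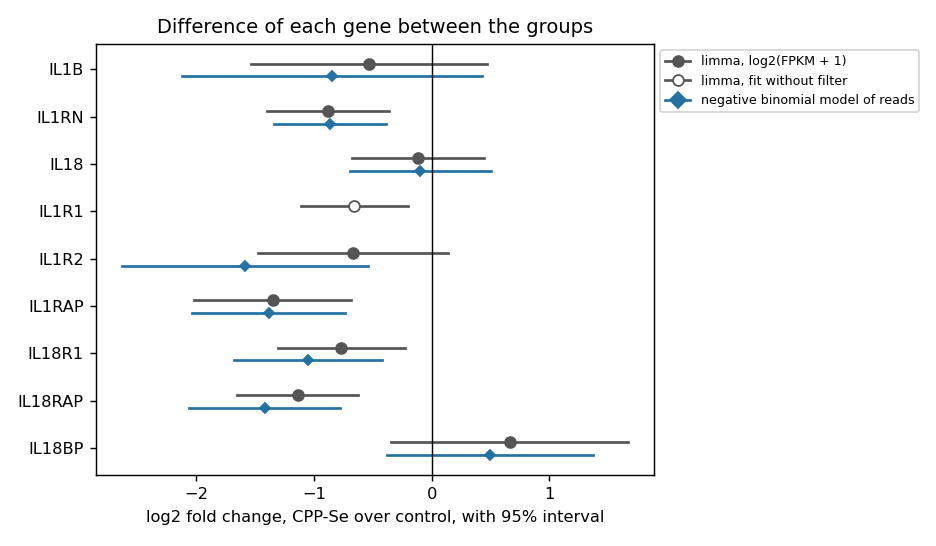
Log2 fold change of 9 genes (all but IL1A), CPP-Se over control, with 95% intervals, from limma on log2(FPKM + 1) (filled circles), from limma without a filter for the scarce gene IL1R1 (open circle) and from the negative binomial model of recovered reads (diamonds). The intervals of IL1RN, IL1RAP, IL18R1 and IL18RAP lie below 0 in both fits, and those of IL1B, IL18 and IL18BP include 0 in both.

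Of the 6 receptor and binding protein genes, 4 lie within 453 kb on the minus strand of chromosome 10. Their order in the dog genome of Ensembl release 100 is IL18RAP, IL18R1, IL1R1 and IL1R2. All 4 had lower means in the CPP-Se group, and 3 of them showed no overlap, as 8.84% of all detected genes did in this direction. IL1RL1 and IL1RL2, the receptors of interleukin-33 and interleukin-36, lie between IL18R1 and IL1R1. They held at most 2 and 3 reads per dog, so nothing could be compared at this depth. The spans of IL1R1 and IL1R2 share 928 bases on the same strand, and how reads in such stretches were assigned was not given in the sources used here. The column of the deposited table headed tf_family lists TIR for IL1RAP, IL1R1, IL18R1 and IL18RAP, and ig for the decoy IL1R2.

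**Figure D3:**
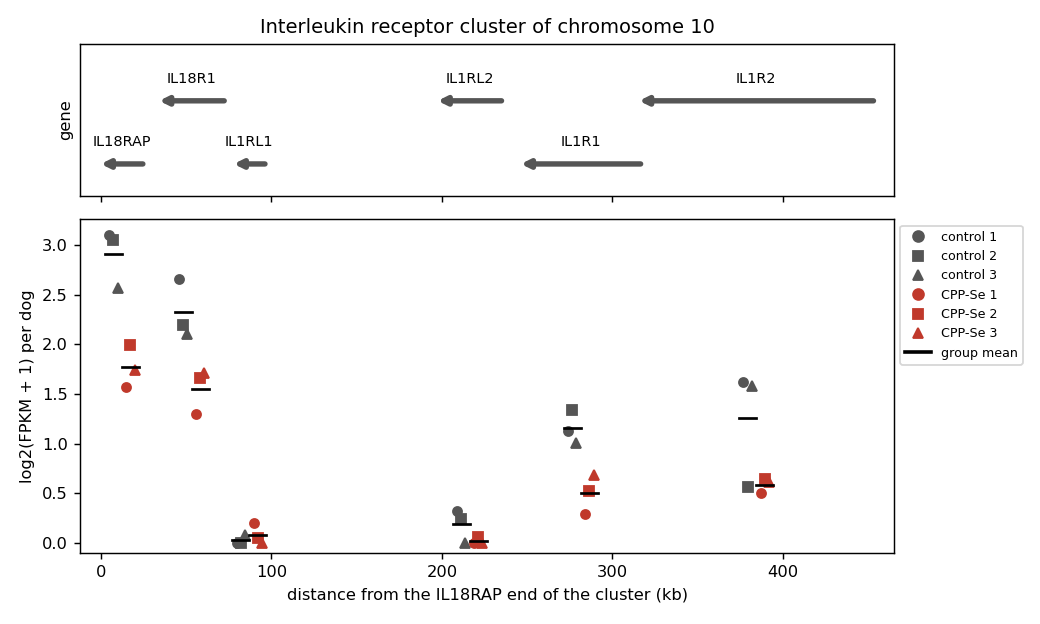
Upper panel, the 6 interleukin receptor genes of the chromosome 10 cluster drawn to scale against the distance in kb, with arrows pointing in the direction of transcription. Lower panel, log2(FPKM + 1) of each gene in the 3 control dogs (grey) and 3 CPP-Se dogs (red), with bars at the group means, where IL18RAP, IL18R1 and IL1R1 separate and IL1RL1 and IL1RL2 are near 0.

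A second cluster, on chromosome 17, holds IL1A, IL1B and IL1RN with the interleukin-36 genes between them. Within its 279 kb, IL1RN was the only gene above 10 FPKM in any dog. IL36B, IL36RN and IL1F10 were at 0 in all 6 dogs, and IL36G had 0 to 6 reads per dog. IL37, on the opposite strand, had 0 to 7 reads per dog, and its annotated span covers all of IL1B and part of IL1A.

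Ratios within a dog set an inhibitor or partner chain against its counterpart, and 5 were computed. IL1RN exceeded IL1B 18.2, 10.5 and 53.7 times in the control dogs, against 13.8, 17.4 and 32.8 times for CPP-Se. The antagonist exceeded the ligand in all 6 dogs, and the groups overlapped (difference in log2 ratio -0.13, p = 0.9 by an exact permutation test, two-sided). This difference was -0.65 without control replicate 2 and 0.52 without control replicate 3. The ratio of IL18BP to IL18 was 1.03, 0.855 and 2.46 in the control dogs, against 2.63, 3.44 and 1.29 for CPP-Se, with overlap (p = 0.2 by the exact permutation test).

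The ratio of IL1RN to IL1RAP was higher in every CPP-Se dog, at 3.64, 3.76 and 5.44 against 2.52, 2.53 and 3.55 in the control dogs. The ratio of IL18RAP to IL18R1 was lower in every CPP-Se dog, at 1.35, 1.38 and 1.04 against 1.43, 2.03 and 1.49. For both, p was 0.1 by the exact permutation test, which is the smallest value that 3 dogs against 3 can give, and 0.25 after adjustment over the 5 ratios. IL1R2 to IL1R1 ranged from 0.312 to 1.99 in the control dogs and from 0.868 to 1.86 in the CPP-Se dogs, with overlap (p = 0.9 by the exact permutation test).

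**Figure D4:**
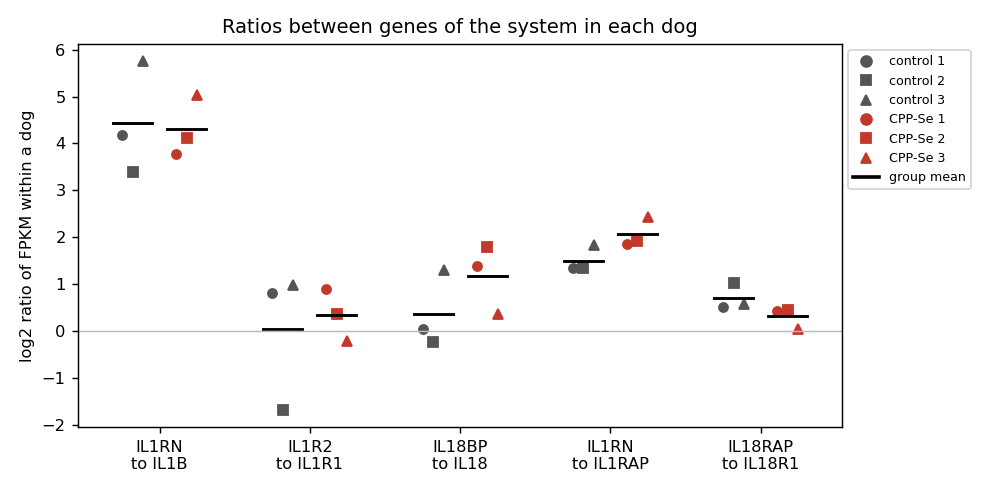
Log2 ratio of FPKM within each dog for 5 pairs of genes, in the 3 control dogs (grey) and 3 CPP-Se dogs (red), with bars at the group means and a line at equal FPKM. The groups separate narrowly for IL1RN to IL1RAP and for IL18RAP to IL18R1.

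The pathway around these genes was described with further lists. CASP1, which encodes caspase 1, and the inflammasome sensors NLRC4 and AIM2 were not matched by symbol. Among 7 tested genes of processing and release, 6 had a lower mean log2 value in the CPP-Se group and 4 were lower at an unadjusted p under 0.05, as were 9.10% of all genes tested (median log2 fold change -0.70, against -0.0043 over all genes tested). MEFV, which encodes the inflammasome protein pyrin, had 7.30, 5.91 and 8.11 FPKM in the control dogs, against 3.12, 2.36 and 1.02 FPKM for CPP-Se, without overlap (log2 fold change -1.41, adjusted p = 0.138 from limma). PYCARD, the inflammasome adaptor ASC, had a log2 fold change of -0.84 (adjusted p = 0.360), and the sensor NLRP1 had one of -0.75 (adjusted p = 0.304), both from limma.

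Of 17 tested genes of receptor signaling, 4 were lower at an unadjusted p under 0.05 (9.10% of all genes tested) and 0 were higher (6.87%), with a median log2 fold change of -0.25. PELI1, a ubiquitin ligase that acts on the IRAK kinases, averaged 28.6 ± 1.46 FPKM in the control dogs, against 15.4 ± 2.69 FPKM for CPP-Se (SD, n = 3 dogs each). The kinase IRAK2 had a log2 fold change of -0.78 (adjusted p = 0.284), and the adaptor MYD88 had one of -0.50 (adjusted p = 0.285), both from limma. The dogs did not overlap for these 3 genes, of which IRAK2 passed the filter through its control dogs (1.94 against 0.752 FPKM).

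Among 6 tested genes that respond to interleukin-1, 3 were lower and 1 was higher at an unadjusted p under 0.05, against 9.10% and 6.87% of all genes tested. CXCL8, the neutrophil chemokine, had 5.86, 3.98 and 5.89 FPKM in the control dogs, against 0.991, 3.15 and 0.718 FPKM for CPP-Se (log2 fold change -1.35, adjusted p = 0.173 from limma). NFKBIA, which encodes an inhibitor of NF-kappa B, and SOD2, the mitochondrial superoxide dismutase, had log2 fold changes of -0.87 and -0.72. The higher gene was ZC3H12A, an RNase that degrades cytokine transcripts, at 0.68, and it was named after its values were seen. IL6 was at 0 in all 6 dogs.

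All 6 tested genes linked to the response to interleukin-12 and interleukin-18 had a higher mean log2 value in the CPP-Se group, with a median log2 fold change of 0.66, and 2 of them had an unadjusted p under 0.05, against 6.87% of all genes tested as higher. These were CCL4, a chemokine of activated lymphocytes and monocytes, at 0.854, 1.03 and 1.36 FPKM in the control dogs against 9.10, 3.60 and 7.97 FPKM, and TBX21, the T-bet transcription factor, at 3.28, 6.49 and 3.03 against 18.1, 11.4 and 12.7 FPKM. IL12RB1, a chain of the interleukin-12 receptor, had a log2 fold change of 0.70 (adjusted p = 0.363 from limma). The cytokine IFNG was detected in 1 dog, CPP-Se replicate 1, at 0.511 FPKM, and was named after its values were seen. Of the other interleukin-1 family genes, SIGIRR, an inhibitory receptor, was the only one tested, with a log2 fold change of 0.52 (adjusted p = 0.545 from limma). Limma called no gene of these pathway lists, whereas the negative binomial model called MEFV, PELI1, CXCL8 and NFKBIA as lower and CCL4 and TBX21 as higher, where it called 4.36% of all genes in either direction.

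The summed FPKM of 9 monocyte markers was 329 to 437 in the control dogs and 229 to 250 in the CPP-Se dogs, and 5 of the 8 tested were lower at an unadjusted p under 0.05, against 9.10% of all genes. CD163, 1 of the 5, passed the filter through its control dogs (1.70 against 0.454 FPKM) and was named after its values were seen. The sum of 7 neutrophil markers was 2039 to 2760 against 1600 to 2086, with 3 of 6 lower. MMP9, which encodes gelatinase B, ran against the other neutrophil markers in CPP-Se replicates 1 and 3 (729.1 and 540.0 FPKM, against 68.3 to 96.3 FPKM in the control dogs and 23.7 FPKM in CPP-Se replicate 2). Without it, a choice made after its values were seen, the sums were 1970 to 2663 against 1060 to 1624, with no overlap. With a common sum of FPKM, CPP-Se replicate 2 entered the control range for both lists, at 369.1 for the monocyte sum and 2491 for the neutrophil sum without MMP9. T cell markers (11 genes) summed to 115 to 224 in the control dogs and 260 to 334 in the CPP-Se dogs, with 6 higher, where 6.87% of all genes were, and 10 NK and cytotoxic cell markers summed to 12.1 to 27.4 against 31.3 to 56.6, with 2 of 7 higher. The sum of 7 B cell markers was 272.8 to 392.1 against 414.2 to 458.9, with 4 higher, and came to overlap with a common sum of FPKM, whereas the T cell and NK sums stayed apart. The sums for eosinophils and basophils, platelets and red cells overlapped. The monocyte marker CD14, the neutrophil marker PADI4 and the NK marker NKG7 were not matched by symbol, and none of the matched markers of these 4 lists was at 0 in all dogs.

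The genes of the system were set beside these lists within each dog. Against the mean log2(FPKM + 1) of the monocyte markers, which differed by -0.71 between the groups, IL1RAP remained lower in every CPP-Se dog (difference -0.64), whereas IL1RN (-0.17), IL18R1 (-0.06) and IL18RAP (-0.43) overlapped. IL18BP was higher than the monocyte markers by 1.37 more in the CPP-Se group, without overlap. Against the neutrophil markers, all 8 tested genes overlapped, with differences of -0.86 for IL1RAP, -0.65 for IL18RAP, -0.39 for IL1RN and -0.28 for IL18R1. With MMP9 left out, the mean of the neutrophil markers differed by -0.86 between the groups, without overlap. The differences of these genes became -0.49 (IL1RAP), -0.28 (IL18RAP), -0.03 (IL1RN) and 0.09 (IL18R1), and IL18RAP alone was free of overlap. The mean of the T cell markers was itself higher in every CPP-Se dog than in any control dog (difference 0.72). Genes that differed little between the groups therefore come out lower against it. Apart from IL18BP, which overlapped, the differences ran from -0.84 for IL18, which differed little by itself, to -2.07 for IL1RAP. IL18R1 (-1.49) and IL18RAP (-1.86), whose receptor chains are known from T and NK cells, lay within this range. The share of all genes without overlap against a marker mean was not computed. The part of cell composition in these differences was not tested.

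**Figure D5:**
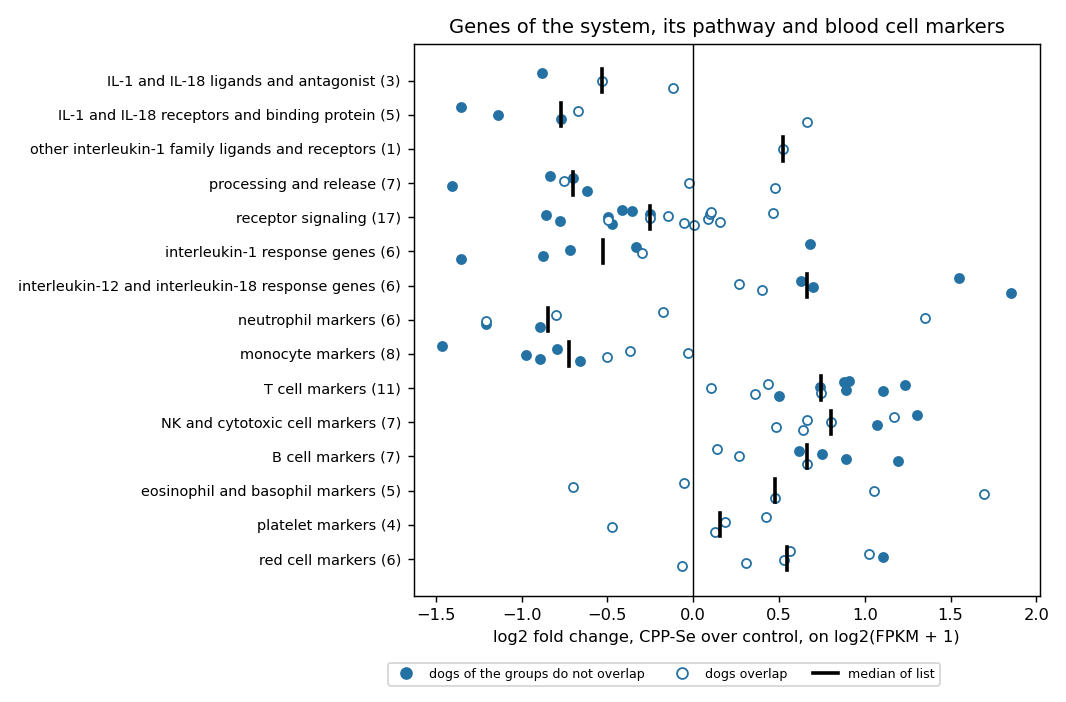
Log2 fold change, CPP-Se over control on log2(FPKM + 1), of the tested genes of each list, with the number of genes in brackets. Filled points are genes whose dogs do not overlap between the groups, and bars are list medians. The medians lie below 0 for the interleukin-1 and interleukin-18 genes and for the neutrophil and monocyte markers. They also lie below 0 for the lists of processing, receptor signaling and interleukin-1 response. All other lists, among them those of lymphocytes, eosinophils and basophils, platelets and red cells, have medians above 0.

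The genes most like each of the 4 genes with an unadjusted p under 0.05 were sought over the 6 dogs, as Pearson r of log2(FPKM + 1) among the named genes tested. For IL1RAP they were SLC2A6 (r = 0.991), P2RY13 (r = 0.99) and FGR (r = 0.988). TANK (r = 0.998), LYN (r = 0.996) and DDX5 (r = 0.993) were most like IL18RAP. The closest genes to IL1RN were PLXNC1, CD180 and ST3GAL1, and those closest to IL18R1 were BTBD1, PTBP3 and PHACTR1, all with r between 0.991 and 0.994. Among the genes of the system, r was 0.956 for IL1RN with IL1RAP and 0.939 for IL18R1 with IL18RAP, while IL18BP ran against IL18RAP (r = -0.70). These are descriptions of 6 points that share libraries and groups.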

How the data were processed

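Whole blood RNA of 3 control and 3 CPP-Se dogs was sequenced by the authors after oligo(dT) enrichment (NEBNext Ultra, paired ends). Alignment by the authors used HISAT2 2.0.5 and the Ensembl release 100 dog genome. The submitters' processing notes also name fastp 0.19.7 and featureCounts 1.5.0-p3. The deposited values are FPKM, computed by the authors from gene length and mapped reads. The library size behind them, the use of strand and the treatment of shared reads were not given in the sources used here. Gene lengths in bases are in the same table.

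Reads were recovered from FPKM times gene length. In each library 100% of these products, genes at 0 included, were whole multiples of the value of 1 read. The tolerance was 0.02 read plus a share of the count, so the check is loose at high counts. The floor of 3 reads covers counting error only, since PCR reads carry no molecular identifiers, whereas the 95% intervals come from the fits and include the spread between dogs. The 9847 genes with a mean of 1 FPKM or more were fitted on log2(FPKM + 1) with limma 3.58.1 in R 4.3.3 (lmFit, eBayes with trend, two-sided, Benjamini-Hochberg adjustment). Tables and exact permutation tests were made in Python 3.11.15 with scipy 1.17.1. The negative binomial model had 1 mean per group, the implied library size as offset, dispersions shrunk to a trend and a two-sided Wald test. The limma, limma-voom and negative binomial fits were tested on simulated data.

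Dogs were grouped by library name. The labels call them biological replicates. Equal replicate numbers do not pair dogs in any source used here. The genes, lists and tests were chosen with earlier results of these data known. The genes named are the 10 of the system, the 3 with the largest absolute log2 fold change in each pathway list, and the 3 most like each gene with an unadjusted p under 0.05. Genes beside or overlapping those of the system are named for their position, and list genes at 0 in all dogs for that value. ZC3H12A, IFNG, CD163 and MMP9 were named after their values were seen. The alternatives were another pseudocount and threshold, other filters, scalings and variance models, a replicate block, models of reads, and each dog left out. Leaving MMP9 out of the neutrophil markers and scaling the marker sums to a common sum were added after seeing the data.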

Additional observations from a re-analysis of the deposited data

How the results depend on the processing

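No gene of the system was called with limma in any of the settings tried, and the negative binomial model called 4. The number of genes called over the whole table was 3, and it was 12 with a common sum of FPKM, 1 with a mean of at least 5 FPKM, 1 with limma-voom, 429 with the negative binomial model, 0 without a filter (1857 genes at an unadjusted p under 0.05) and 0 with a pseudocount of 0.1 (1537 genes). Leaving out each dog gave 0 to 14 (971 to 1642 genes at an unadjusted p under 0.05), with the 14 without CPP-Se replicate 2. Genes of the system that were lower at an unadjusted p under 0.05 numbered 4 (9.10% of all genes). The number stayed 4 with median of ratios scaling (8.72%) and with quantile normalization (7.89%). It was 2 with a common sum of FPKM (2.68%) and 2 with a mean of at least 5 FPKM, where 4 were tested (12.7%). With each dog left out, these genes numbered 3 to 5 (5.54% to 8.92% of all genes). Without control replicate 1, IL18R1 was the gene lost. Those without overlap numbered 5 of 10 (8.84% of all genes), and 3 with a common sum of FPKM (2.73%), where CPP-Se replicate 2 lay above every control dog for IL1RN and among them for IL18R1. The log2 fold change of IL18 turned to 0.029 with a common sum of FPKM and to 0.11 without CPP-Se replicate 2, with -0.31 to 0.11 over the dogs left out. Those of IL1RAP and IL18RAP stayed between -1.61 and -1.06 and between -1.31 and -1.04 with each dog left out. The cause of these shifts was not tested. With replicate number as a block, 1 gene was called over the table and none of the system. Deviations of equally numbered dogs correlated at 0.02, -0.09 and -0.04, and those of unequally numbered dogs at -0.08 to 0.11. With 3 dogs per group, these values cannot exclude a pairing. The numbers were not read as pairs because no source used here pairs the dogs. Depth limits IL1A, IL1B and IL1R1 most, at 0 to 45 reads per dog.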
